A study of Mus musculus with 4 samples.

Results

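The cytosolic heat shock chaperones considered here were 10 mouse genes: Hspa1b, Hspa8, Hsph1, Dnajb1, Hsp90aa1, Bag3, Hspb1, Hspb8, Cryab and Zfand2a. Their members were all probe sets whose platform annotation gave exactly 1 of these symbols, 29 of the 34945 probe sets with a single symbol. Every one of the 10 genes had at least 1 probe set, among 18193 genes with one. Total RNA of mouse mesangial cells, the contractile pericytes between the capillaries of a kidney glomerulus, had been hybridised to 4 one-colour oligonucleotide arrays. According to the labels, 2 arrays were from cells in low glucose and 2 from cells given TGF-beta1, the cytokine that drives matrix deposition in the glomerulus. Strain, source of the cells, glucose level, dose and time are unstated in the sources used here, so a role of glucose and one of the cytokine cannot be told apart. It is also unstated whether the 2 arrays of a group are separate cultures. P-values here measure the spread of these arrays and no other, and it may be technical.

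Heat shock chaperones bind unfolded proteins and keep them from aggregating. Hsp70 proteins do this in cycles of ATP hydrolysis that J-domain proteins such as Dnajb1 start and that nucleotide exchange factors such as Hsph1 and Bag3 end, Hsp90 takes over kinases and steroid receptors for their last folding steps, and the small heat shock proteins hold clients without ATP. When unfolded proteins build up, heat shock factor 1 is released from chaperones, binds repeats of the letters GAA and TTC in promoters, called heat shock elements, and switches many of these genes on together. In contractile cells the small heat shock proteins also bind actin and intermediate filaments.

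The promoters of the members are shown for description only. RefSeq promoter windows of build GRCm38.p6, 250 bases before to 50 after an annotated start, were at hand for 7 of the 10 members (9 windows). A 2-unit heat shock element, GAANNTTC or TTCNNGAA (N is any base, and each form reads the same on the other strand), was present in 6 of the 7: Hspa1b, Hsph1, Bag3, Hspb1, Hspb8 and Zfand2a. Over all genes with such windows, 17.0% held it. The 3-unit form, TTCNNGAANNTTC or on the other strand GAANNTTCNNGAA, was present in Hsph1, against 0.662% of all genes, and there it overlaps 2 of the gene's 2-unit matches. The 5 genes of this set that were higher with TGF-beta1 all had a 2-unit match. Hspb8, which was not higher, had one too, while Dnajb1 had none in its windows. Hspa8, Hsp90aa1 and Cryab, which did not rise, had no window, so whether a match goes with a rise cannot be read from these windows. A CCAAT box (CCAAT or ATTGG) lay in 4 of the 7 against 41.1% of all genes, a TATA box (TATAAA or TTTATA) in 0 against 15.7%, an AP-1 site (TGACTCA or TGAGTCA) in Bag3 against 5.95%, and a CRE-like site (TGACGTCA) in Zfand2a against 2.03%. These are letter matches, and binding was not measured. The 250 bases before the start are given for 4 of the members that were higher, 5′ to 3′ on the gene's strand, with heat shock element matches in capitals: Zfand2a at chr5:139484492-139484741 (minus strand), Hspa1b at chr17:34959239-34959488 (minus), Hspb1 at chr5:135887669-135887918 (plus) and the more upstream start of Hsph1 at chr5:149636337-149636586 (minus).
Zfand2a: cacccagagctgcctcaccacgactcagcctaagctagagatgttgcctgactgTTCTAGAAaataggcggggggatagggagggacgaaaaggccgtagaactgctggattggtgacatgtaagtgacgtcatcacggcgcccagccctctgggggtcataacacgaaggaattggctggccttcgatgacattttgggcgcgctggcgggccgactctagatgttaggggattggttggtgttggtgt
Hspa1b: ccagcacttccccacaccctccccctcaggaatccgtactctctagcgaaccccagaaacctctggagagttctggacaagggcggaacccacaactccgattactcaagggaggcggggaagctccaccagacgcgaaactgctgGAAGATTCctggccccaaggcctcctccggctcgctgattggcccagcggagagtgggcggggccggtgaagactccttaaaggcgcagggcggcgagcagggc
Hspb1: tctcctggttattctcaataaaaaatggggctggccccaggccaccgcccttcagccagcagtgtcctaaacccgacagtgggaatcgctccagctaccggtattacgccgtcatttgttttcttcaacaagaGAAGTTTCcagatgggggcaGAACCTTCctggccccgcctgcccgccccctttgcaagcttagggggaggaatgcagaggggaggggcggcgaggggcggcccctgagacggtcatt
Hsph1: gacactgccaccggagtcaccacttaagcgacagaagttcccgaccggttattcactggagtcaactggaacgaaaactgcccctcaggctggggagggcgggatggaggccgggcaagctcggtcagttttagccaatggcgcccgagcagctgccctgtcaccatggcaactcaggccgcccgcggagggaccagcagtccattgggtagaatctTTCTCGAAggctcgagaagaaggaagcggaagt
The matches lie from -196 to -189 in Zfand2a, from -104 to -97 in Hspa1b, from -117 to -110 and from -97 to -90 in Hspb1, and from -33 to -26 in Hsph1, counted from the start. The 3-unit element of Hsph1 lies after that start, from 37 to 49, and the match of Bag3 from 43 to 50. They are shown within stretches of 28 bases, chr5:149636287-149636314 (minus strand) for Hsph1 and chr7:128523605-128523632 (plus strand) for Bag3.
Hsph1, after the start: taaaatgctgcagaTTCTGGAAAGTTCt
Bag3, after the start: aagttctctggatgggaccaGAAGTTTC

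**Figure D1:**
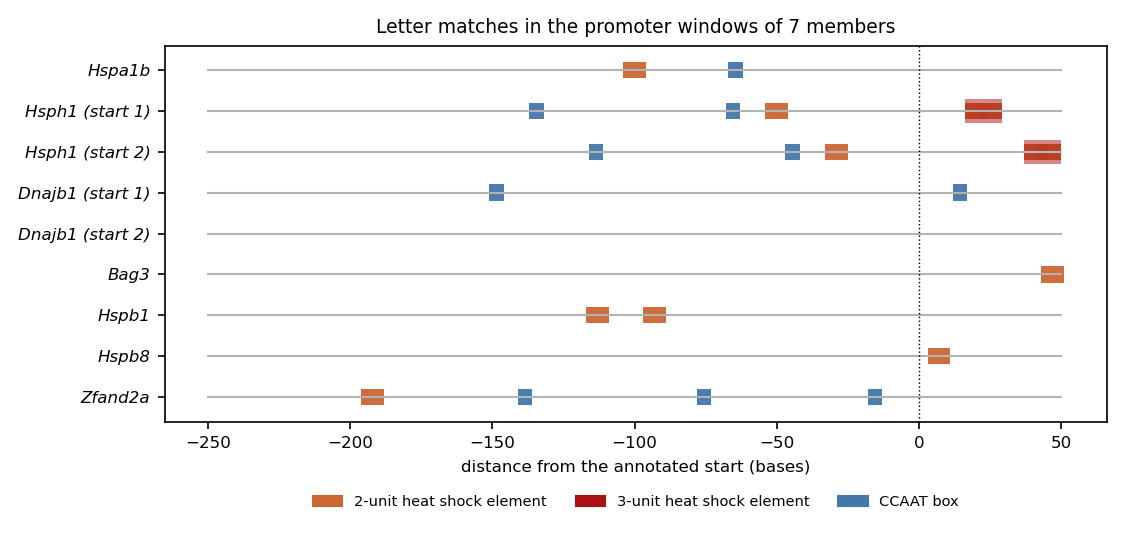
Matches to the 2-unit and 3-unit heat shock element and the CCAAT box in the promoter windows of 7 members, by distance from the annotated start in bases. Hspb1 has 2 heat shock element matches close together, the 3-unit match of Hsph1 lies after the start, and Dnajb1 has only CCAAT boxes.

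The arrays fell into 2 pairs, each with both groups. Pair 1 held replicate 1 of low glucose with replicate 2 of TGF-beta1, and pair 2 held replicate 2 of low glucose with replicate 1 of TGF-beta1. The 18 spike-in probe sets, which read bacterial and phage transcripts added at hybridisation, had medians of 315 and 320 in pair 1 and 822 and 783 in pair 2. Without the groups in the model, limma separated 41.3% of genes between the pairs at an adjusted p under 0.05. The pair was therefore a block in the fit, which leaves a group difference as it is and changes its error. The 3′ to 5′ signal ratio of the actin control was 1.18 and 1.51 in low glucose and 1.32 and 1.18 with TGF-beta1, and that of the Gapdh control lay between 0.948 and 1.003. Of 12 mesangial markers 10 passed the brightness filter (not Gata3 and Thy1), with 3 higher and 1 lower in the fit. The summed deposited intensity of all 12 was 6328 and 5369 in low glucose and 6657 and 7688 with TGF-beta1. Marker sums take in those below the filter and are not normalised. The median intensities of the arrays were 96.8 and 99.6 in pair 1 and 78.3 and 80.3 in pair 2. Of the tubule markers 5 of 6 passed (not Slc34a1), 3 were lower, and their sum was 5762 and 4895 against 3956 and 4074. Of 6 macrophage markers 4 passed (not Fcgr1 and Ptprc) and 1 was lower, with sums of 1994 and 1614 against 1301 and 1649. Podocyte markers passed in 3 of the 5 on the array (not Ptpro and Wt1), with 1 higher and 1 lower and sums of 811 and 617 against 579 and 850. Endothelial markers passed in 1 of 6, with Cdh5, Emcn, Pecam1, Tek and Tie1 dim and sums between 239 and 329. Over all tested genes, 7.88% were called higher and 10.6% lower in that fit. The part of these marker differences in the results was not tested. In such bulk RNA fewer cells of a type and less RNA per cell cannot be told apart.

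With TGF-beta1, 5 of the 10 chaperone genes rose, 1 fell and 4 did not pass. Zfand2a, an AN1-type zinc finger protein of the proteasome pathway, rose most, followed by the inducible Hsp70 gene Hspa1b and the small heat shock protein Hspb1, then Hsph1 and Bag3, and Cryab fell. A gene is said to rise or fall where limma's adjusted p was under 0.05 in the fit that has the array pair as its block, over 13565 genes with 1 probe set each, the brightest. Differences are TGF-beta1 minus low glucose in quantile-normalised log2(intensity + 46.9), ± the standard error of the fit with n = 2 arrays per group. The pseudocount makes changes of dim genes look smaller. Over all genes 7.88% were called higher and 10.6% lower. The median difference was 0.21 over the 10 members (0.18 and 0.26 within the pairs) and 0.00 over all genes. Of the 10 differences 9 were above 0, and 5 lay above the 95th percentile of all genes, 0.24. Both TGF-beta1 arrays were above both low glucose arrays in 6 of the 10 genes and below them in 1, that is, without overlap in 7 of 10, against 9.81%, 11.1% and 20.9% of all genes.

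These calls rest on how the spread is estimated. With the block only 1 residual degree of freedom is left, and limma took the spread of a gene wholly from genes as bright as it. Fitted without the block, 0 of the 10 members and 0 of all genes passed with limma (smallest adjusted p = 1), and 2 members and 270 genes had an unadjusted p under 0.05. A further fit kept the block and took both the prior variance and the 2.80 prior degrees of freedom of the fit without it. There 0 members passed as well (smallest adjusted p = 1). At an unadjusted p under 0.05 with limma there were 3 members, Zfand2a, Hspb1 and Hspa1b, among 305 of 13565 genes. Another alternative, chosen after seeing the data, took these degrees of freedom and the prior variance of the blocked fit. In it 0 members passed with limma (smallest adjusted p = 0.101). The 5 that rose had an unadjusted p under 0.05 in it, as did 2240 of 13565 genes. When 1 array was left out, which was done without the block, 0 members passed. The sizes below do not depend on the block, except those with 1 array left out. There a pair has lost an array, so part of the gap between the pairs enters the value.

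**Figure D2:**
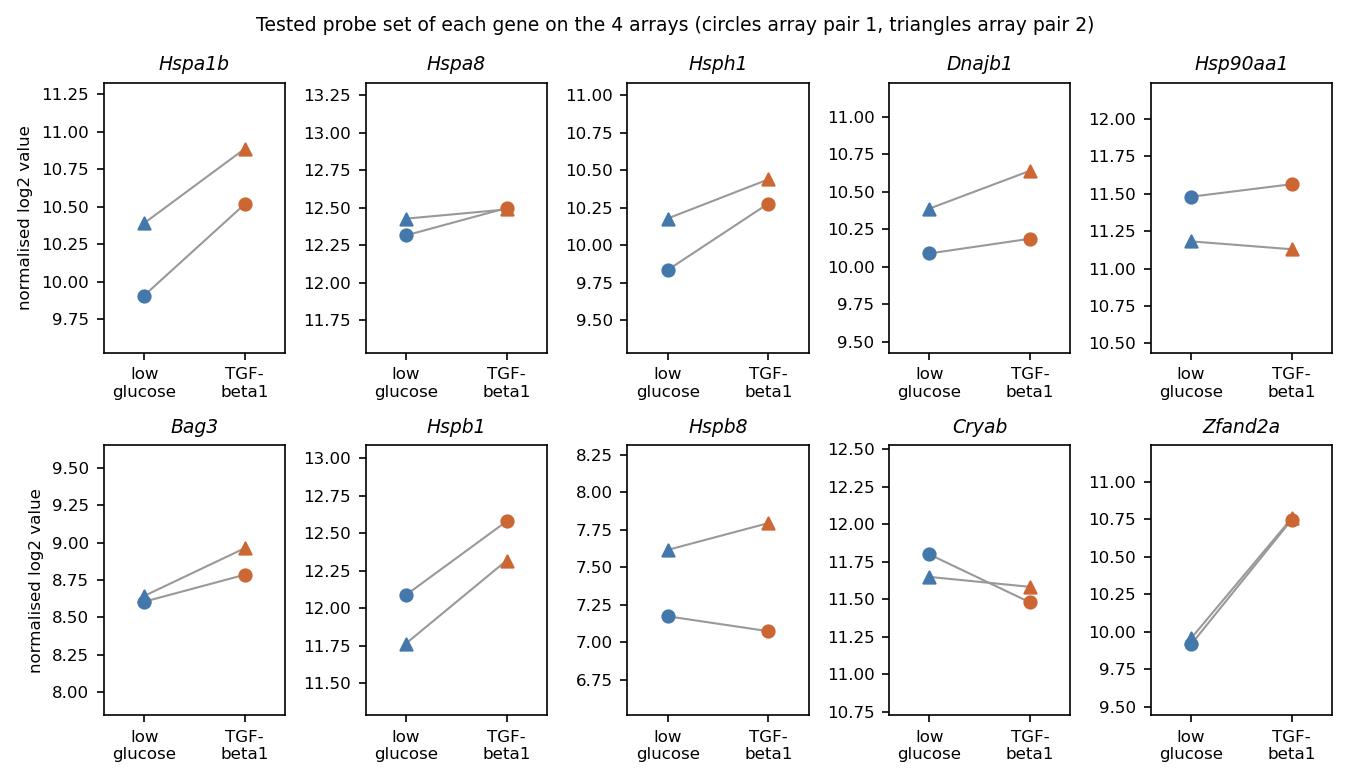
Normalised log2 value of the tested probe set of each of the 10 genes on the 4 arrays, blue for low glucose and orange for TGF-beta1, with lines joining the arrays of a pair and every panel spanning the same range. Both lines climb for Zfand2a, Hspa1b, Hspb1, Hsph1 and Bag3, and also for Hspa8 and Dnajb1, which did not pass. For Dnajb1, Hsp90aa1 and Hspb8 the gap between the lines is larger than their slope.

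The Hsp70 proteins themselves differed in size of change. Hspa1b encodes the stress-inducible Hsp70. Its brightest probe set had deposited intensities of 929 and 1262 on the low glucose arrays (replicates 1 and 2) and 1822 and 1435 on the TGF-beta1 arrays. Both TGF-beta1 arrays were above both low glucose arrays, although the upper low glucose value came close to the lower TGF-beta1 value. The difference was 0.55 ± 0.079 (1.47-fold; 0.61 and 0.50 within the pairs; limma adjusted p = 1.37e-10), rank 126 from the top of the 13565 genes. The other probe sets of Hspa1b were at 0.62 and 0.60. Without low glucose replicate 1 the difference was 0.31, and without TGF-beta1 replicate 1 it was 0.37. Hspa1a, its neighbour of nearly the same coding sequence, was at 104 and 98.3 in low glucose and 132 and 138 with TGF-beta1, a difference of 0.26 ± 0.067 (limma adjusted p = 0.0013). Because the messages are so alike, a probe set annotated to one of them may read both.

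Hspa8 is the constitutive Hsp70 of the cytosol. Its brightest probe set had intensities of 5133 and 5400 in low glucose and 5548 and 5864 with TGF-beta1. These groups did not overlap, yet the difference of 0.12 ± 0.048 (0.18 and 0.06 within the pairs) did not pass (limma adjusted p = 0.0571), and it was at 0.07 without low glucose replicate 1. Of its other probe sets 2 lay at 0.10 and 0.05, and a dim one, at 77.2 and 75.2 against 98.8 and 96.3, at 0.20. That dim probe set passed when all 23222 kept probe sets were tested (limma adjusted p = 0.034).

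Hsph1, the Hsp110 that exchanges nucleotide on Hsp70, had intensities of 884 and 1086 in low glucose and 1327 and 1213 with TGF-beta1. Both TGF-beta1 arrays were higher. The difference was 0.35 ± 0.081 (0.44 and 0.26 within the pairs; limma adjusted p = 0.00023), with 0.31 on its other probe set, and 0.18 without low glucose replicate 1. Bag3, a cochaperone that links Hsp70 and small heat shock proteins to autophagy of damaged filament proteins, had 1 probe set, at 351 and 348 in low glucose and 446 and 398 with TGF-beta1. The low glucose arrays were nearly equal, and both TGF-beta1 arrays stood above them. Its difference was 0.25 ± 0.075 (0.18 and 0.32 within the pairs; limma adjusted p = 0.00804), and 0.16 without TGF-beta1 replicate 1.

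Dnajb1, the J-domain partner of Hsp70 known as Hsp40, had intensities of 1056 and 1260 in low glucose and 1528 and 1135 with TGF-beta1, so the groups overlapped. Its difference of 0.18 ± 0.080 (0.10 and 0.25 within the pairs) did not pass (limma adjusted p = 0.113). Dropping the first or the second low glucose array moved the difference to 0.03 or 0.32, and dropping the first or the second TGF-beta1 array to -0.05 or 0.40. The other probe set was at 1163 and 755 against 991 and 1330, again with overlapping groups. Its difference of 0.28 (0.19 and 0.37) passed among all kept probe sets (limma adjusted p = 0.00494).

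Hsp90aa1, the inducible cytosolic Hsp90, was among the members that did not pass. Its brightest probe set read 2862 and 2211 in low glucose and 2151 and 3084 with TGF-beta1. Each group had 1 array near the lower value and 1 near the upper, and the difference was 0.02 ± 0.066 (0.08 and -0.05 within the pairs; limma adjusted p = 0.914). Without the first and the second low glucose replicate it was at 0.16 and -0.13, and without those of TGF-beta1 at 0.23 and -0.20. Of the 3 other probe sets that passed the brightness filter 2 were at 0.06 and 0.12. Another, a dim one at 96.9 and 62.3 against 97.7 and 123, was at 0.30 and passed among all kept probe sets (limma adjusted p = 0.000289). The remaining one was below the filter.

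The small heat shock proteins moved in different ways. Hspb1, which binds actin filament ends and is phosphorylated downstream of p38 MAP kinase, had intensities of 4363 and 3334 in low glucose and 4890 and 6245 with TGF-beta1. Both TGF-beta1 arrays were above both low glucose arrays. Its difference was 0.52 ± 0.052 (1.44-fold; 0.49 and 0.55 within the pairs; limma adjusted p = 2.07e-21), rank 147 from the top. The other probe set read 3602 and 2838 against 4221 and 5506 and was at 0.60.

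Cryab, alpha B-crystallin, a small heat shock protein of muscle and lens that binds desmin, was the member that fell. Its brightest probe set read 3584 and 3077 in low glucose and 2937 and 2915 with TGF-beta1, so both TGF-beta1 arrays were lower, by a small margin. The difference was -0.19 ± 0.062 (-0.32 and -0.07 within the pairs; limma adjusted p = 0.0135), and -0.12 without low glucose replicate 1. Another bright probe set was at 2491 and 4160 against 3805 and 2215, and its difference of -0.13 did not pass among all kept probe sets (limma adjusted p = 0.156). The remaining one was below the filter, at 29.6 to 45.1.

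Hspb8, the partner of Bag3, was dim. Its tested probe set read 107 and 136 in low glucose and 164 and 99 with TGF-beta1, with overlapping groups, and its difference of 0.04 ± 0.066 had opposite signs within the pairs (-0.10 and 0.18; limma adjusted p = 0.748). Leaving out low glucose replicate 1 or 2 gave -0.18 or 0.26, and leaving out TGF-beta1 replicate 1 or 2 gave -0.32 or 0.40. Another probe set was at 0.09 and the remaining one was below the filter. On the tested probe set the difference between the array pairs, 0.58 with pair 2 the higher, was larger than that between the groups. On the other kept probe set of Hspb8 pair 2 minus pair 1 was -0.12, so there pair 1 was the higher.

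Zfand2a, also known as AIRAP, is induced by arsenite and other proteotoxic stress and associates with the proteasome. Its brightest probe set read 935 and 928 in low glucose and 1652 and 1721 with TGF-beta1. Within each group the arrays nearly matched, and the groups were far apart. Its difference was 0.82 ± 0.080 (1.76-fold; 0.83 and 0.80 within the pairs; limma adjusted p = 2.59e-22), rank 46 from the top. Leaving out any 1 array, it stayed between 0.80 and 0.84. Of its other probe sets, 1 read 384 and 528 against 917 and 707 and another 352 and 494 against 848 and 655, and their differences were 0.79 and 0.78. The remaining one was dim, at 58.1 and 74.96 against 87.5 and 75.7, with a difference of 0.15 that did not pass among all kept probe sets (limma adjusted p = 0.162).

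**Figure D3:**
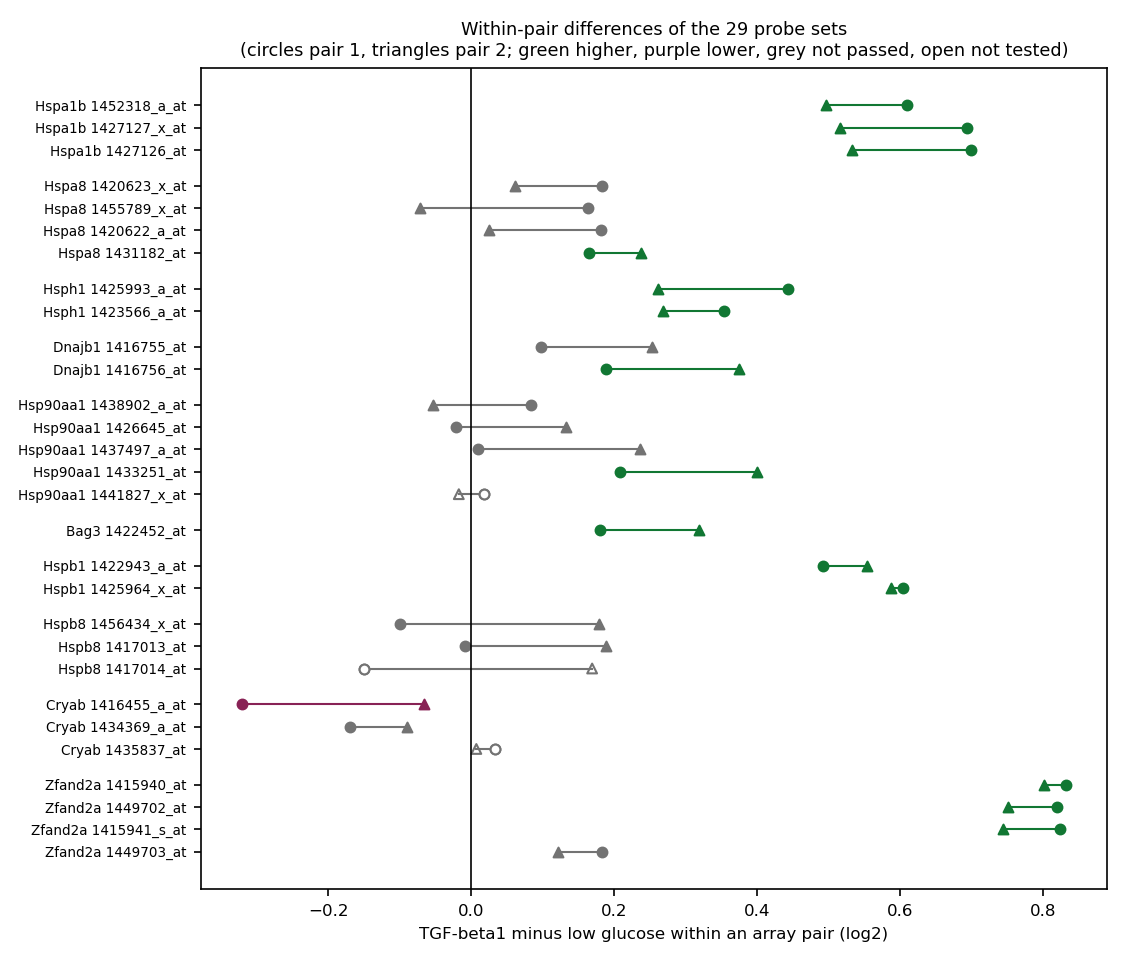
TGF-beta1 minus low glucose on the log2 scale within array pair 1 (circles) and pair 2 (triangles) for the 29 probe sets, by gene and from bright to dim within a gene, with calls from the fit over all kept probe sets. The probe sets of Hspa1b and Hspb1 and 3 of the 4 of Zfand2a lie above 0.4, those of Hsp90aa1 and Hspb8 lie around 0 or up to 0.4, and both bright ones of Cryab lie below 0.

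Of the 29 probe sets 26 passed the brightness filter. In the fit over all kept probe sets 14 of these were higher, 1 was lower and 11 did not pass, against 7.51% higher and 10% lower over all. Probe sets of 1 gene share its RNA and are not replicates. In 9 genes with more than 1 kept probe set, 0 had differences of both signs between the groups. The gap between the array pairs was less uniform: 4 genes had kept probe sets with pair gaps of both signs. For Cryab, pair 2 minus pair 1 was 0.84 on one bright probe set and -0.02 on the other, and for Dnajb1 it was 0.38 and -0.46. This gap was larger than the group difference in 11 of the 26 probe sets, and in 3 of the 10 tested ones. Over all genes the median absolute difference was 0.241 between the pairs and 0.087 between the groups. The cause of the gap was not tested.

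**Figure D4:**
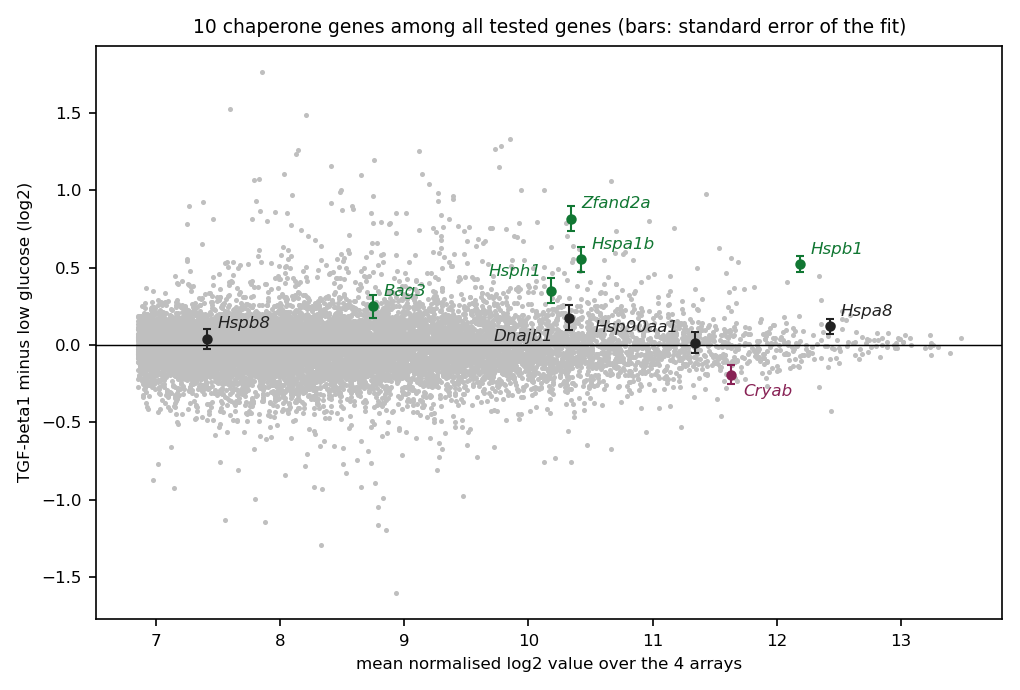
Difference between TGF-beta1 and low glucose (log2) against the mean normalised log2 value of 13565 genes in grey, with the 10 members marked, green where higher, purple where lower and black where not passed, and bars of 1 standard error. Zfand2a, Hspa1b and Hspb1 stand above most genes of their brightness, while Hspb8 and Hsp90aa1 lie near 0.

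Among other protein folding genes, in 10 lists with 102 genes, 89 were tested, 9 rose (10.1%), 1 fell (1.12%) and 79 did not pass, and their median was 0.04. Over all genes 7.88% were called higher and 10.6% lower, so the share that rose was near that background. The Hsp70 and Hsp110 relatives had 3 of 7 that rose, Hspa1a, Hspa4l at 0.26 ± 0.066 and Hspa4 at 0.22 ± 0.079, with a median of 0.04. For Hspa4l the groups overlapped. Hspa4, another Hsp110, rests on its brightest probe set alone, since its 2 others were at -0.11 and -0.09. Among 14 J-domain proteins Dnajb2 rose by 0.23 ± 0.073, Dnajb14, a membrane-bound J-protein, fell by 0.30 ± 0.067 (-0.03 on another probe set), and 12 did not pass, Dnaja1 at 0.20 ± 0.078 among them. The 3 tested small heat shock relatives, Hspb2, Hspb6 and Cryaa, lay between -0.06 and 0.00.

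The tested genes of the regulators and the Hsp90 machinery gave no calls. The 3 tested genes for heat shock factors and their binding protein did not pass, with Hsf4 at 0.05 ± 0.069, Hsf2 at 0.04 ± 0.074 and Hsbp1 at -0.13 ± 0.074. Hsf1, the gene of the factor described above, was not among these 3, so its change was not tested. Hsf4 and Hsf2 were dim. Hsf4 read 114 and 89.8 in low glucose and 97.7 and 122 with TGF-beta1, and Hsf2 103 and 60.7 against 68.8 and 104. Of 9 tested Hsp90 cochaperones 0 passed, with a median of 0.10. Chordc1 was highest at 0.13 ± 0.074, followed by Ahsa1 at 0.12 ± 0.083 and Sugt1 at 0.11 ± 0.078. Hsp90ab1, the Hsp90 gene of this list, was not tested. Of 8 nucleotide exchange factors and Hsp70 cochaperones 0 passed, with Bag2 at 0.19 ± 0.083, Bag4 at -0.08 ± 0.064 and Stub1, the ubiquitin ligase of Hsp70 clients, at -0.17 ± 0.071. At an unadjusted p under 0.05, 0 of the heat shock factor list, 0 of the Hsp90 cochaperones and 2 of the exchange factor list passed with limma and the block. Over all genes 4030 of 13565 did.

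The cytosolic chaperonin TRiC and prefoldin had 2 of 13 that rose, against 7.88% of all genes. They were Cct2 at 0.17 ± 0.057 and Cct3 at 0.14 ± 0.054, while Cct8 was at 0.18 ± 0.075 without passing. The groups of Cct2 and Cct3 overlapped, and those of Cct8 did not. Of 10 mitochondrial chaperones and proteases 0 passed, with Hspa9 at 0.17 ± 0.078, Dnaja3 at -0.15 ± 0.081 and Hspd1 at 0.12 ± 0.066. Of these 10, 1 had an unadjusted p under 0.05 with limma, against 4030 of all 13565 genes. Among 14 chaperones of the endoplasmic reticulum Dnajb9, a J-protein cofactor of the resident Hsp70, rose by 0.50 ± 0.071 (0.65 and 0.35 within the pairs), from 266 and 237 in low glucose to 322 and 433, and 13 did not pass, Hyou1 at 0.14 ± 0.083 and Manf at 0.08 ± 0.074 among them. In the ubiquitin and aggregate list 2 of 8 rose, again against 7.88% of all genes, and Ubqln2 was at 0.11 ± 0.077 without passing. Sqstm1, the autophagy receptor p62, rose by 0.41 ± 0.054, from 4238 and 3232 to 4520 and 5301 (0.14 on its other probe set). Zfand5, a zinc finger relative of Zfand2a, rose by 0.41 ± 0.078, from 1224 and 1187 to 1594 and 1650, while its 5 other probe sets ranged from -0.08 to 0.40.

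**Figure D5:**
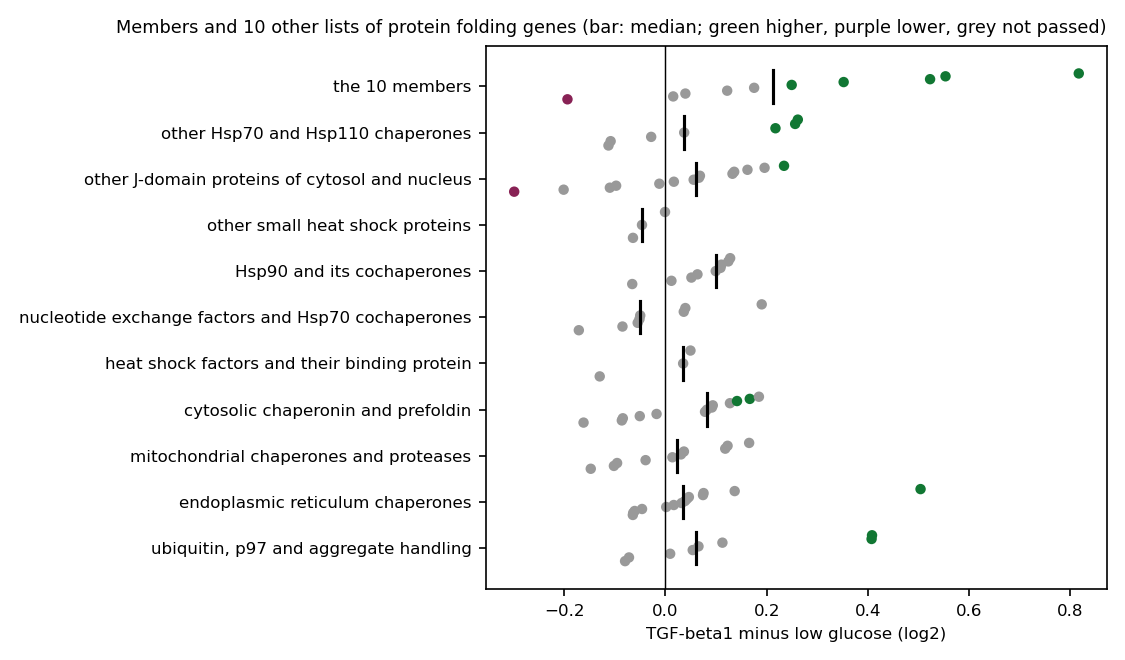
TGF-beta1 minus low glucose (log2) for the 10 members and the tested genes of 10 other lists, 1 point per gene and a bar at each median. The median of the members is 0.21, and those of the other lists lie between -0.05 and 0.10, with Dnajb9, Sqstm1 and Zfand5 apart from their lists.

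The mean profile of the 10 members, each centred on its own mean, was most closely followed by Akirin1, Nuak1, Prdm4, Mak16 and Uck2. Their root mean square distance to it over the 4 arrays was between 0.00901 and 0.0132 on the log2 scale, against a median of 0.212 over all genes. Their differences lay between 0.26 and 0.29. Many members did not follow this mean themselves. Bag3 was nearest to it at a distance of 0.0284. Zfand2a, Hsp90aa1, Hspb8, Cryab, Hspb1 and Hspa1b, at 0.215 to 0.280, were farther from it than the median gene. With 4 arrays, such likeness describes these arrays alone.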

How the data were processed

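RNA of 4 arrays was measured. The authors deposited 1 linear intensity per probe set and array; software, summary method and scaling are unstated in the sources used here. Of 45101 probe sets 64 were controls, and 34945 of the rest had 1 gene symbol in the platform annotation, 932 several and 9160 none.

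From the intensities, log2(intensity + 46.9) was computed, the 25th percentile being the pseudocount. Since the medians of the arrays were up to 0.227 apart (limit 0.1), the arrays were quantile normalised. Probe sets dimmer than the 40th percentile of mean log2 were dropped, and the brightest of each gene tested (13565 genes) with limma 3.58.1 (R 4.3.3): lmFit, then eBayes with trend, two-sided, Benjamini-Hochberg adjustment, threshold 0.05. Array pairs, made from the spike-ins, were a block. The arrays with the same repeat tag in their titles form pair 1, while those of pair 2 share no tag. A permutation of 4 arrays cannot give a p below 0.333, so none was used.

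The members, lists, block and tests were chosen with earlier results of these data known. Named genes were all members, the 3 of largest moderated t in each of 10 lists, and the 5 genes of most like profile; genes named only to complete a count, and the marker genes, stand outside that rule. Alternatives were other pseudocounts, scalings, filters and probe set choices, no trend, no block, other priors, and leaving out each array. Promoter sequences and letter matches are from RefSeq. The number of arrays limits the precision.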

Additional observations from a re-analysis of the deposited data

How the results depend on the processing

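The calls depend on the estimate of the spread. Without the replicate block of array pairs, 0 genes were called with limma (270 at an unadjusted p under 0.05), with 0 members higher and 0 lower. With the block and the prior of the fit without it, degrees of freedom and variance, the counts were 0, 0 and 0 (305 genes at an unadjusted p under 0.05). With those degrees of freedom and the blocked prior variance, an alternative chosen after seeing the data, they were again 0, 0 and 0 (2240). When 1 array was left out, without the block, between 0 and 9 genes were called with limma (185 to 303 unadjusted), with 0 members higher and 0 lower each time, and the median of the members lay between 0.17 and 0.40; a pair then loses an array, so part of the gap between pairs enters the values. Leaving out probe sets that end in x, s or a left 7 members tested, without Hspb1, Hsph1 and Cryab, which had no other probe set above the filter. Of the 7, 4 were higher (Zfand2a, Hspa1b, Bag3 and, on its dim probe set, Hspa8, with a limma adjusted p of 0.0344) and 0 lower. Of all 11846 genes in that fit 2232 were called, 943 of them higher. Testing all kept probe sets gave 4076 calls. Under other pseudocounts, scalings, filters or no trend, 5 members were higher and 1 was lower each time. Between 2351 and 2626 genes were called in these fits, of 10160 to 18193 tested.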
